A study of Drosophila melanogaster with 3 samples.

Results

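Of the 3261 entries that Ensembl release 115 lists under the biotype ncRNA on the 6 main chromosome arms of Drosophila melanogaster, 100 had a CG15011 binding summit of their own. A summit, the base of strongest signal in a peak, was taken as an entry's own when it lay within 500 bp of one of the entry's transcription start sites (TSSs) and no protein-coding TSS lay within 500 bp of that summit. The summits came from the authors' optimal set of 3237 peaks, so the entries were chosen by the strength and position of their peaks, and their signals are given as a description. The 100 entries rest on 98 distinct summits and comprise 75 long noncoding RNAs (lncRNAs), 9 antisense RNAs, 5 microRNA hairpins, 9 mature microRNA products that the annotation lists apart from their hairpins, and 2 other genes, Uhg4 and snoRNA:Or-ACA9. Counted against all entries, this is 3.07%. An optimal summit of any kind, shared ones included, lay within 500 bp of a TSS of 157 ncRNA entries (4.81%) and of 1500 of 13945 protein-coding genes (10.8%).

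The material was whole embryos of both sexes collected 0 to 24 hours after laying, from a fly line with a stably inserted transgene that carries green fluorescent protein (GFP) on the C-terminal end of CG15011. Chromatin immunoprecipitation followed by sequencing (ChIP-seq), which recovers the DNA that a protein sits on, was made in 3 biological replicates that form 1 group. The promoter driving the transgene was not given in the sources used here, and a whole embryo mixes all its cell types and stages. A text label names each sample an input control, whereas the deposited notes describe lists called on each replicate against 1 common control. There is no second group, so no test between groups was possible, and replicates are set beside each other. Each replicate list and the list called on the pooled replicates hold 30000 peaks, and the optimal peaks are the strongest of the pooled ones. Since that pooled list was called on the same replicates, agreement between the lists is a description and no independent support. The signal is the authors' value, ranks are from 1 for the strongest, and read depth is unknown.

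Noncoding RNA genes are transcribed but not translated. Some are long precursors from which microRNAs or small nucleolar RNAs (snoRNAs) are cut, some act as long RNAs in the nucleus, some feed the piRNA pathway that silences transposons, and many known by a CR number alone have no described role. Mature microRNAs recognise messenger RNAs mainly through the seed, bases 2 to 8. The TSS of a hairpin or mature microRNA entry is the first base of a processed piece and not the point where its precursor starts, so these entries are kept apart below where it matters. Leaving them out, 86 of 2520 genes had their own summit (3.41%).

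The small RNAs inside or beside the bound genes are shown with their seeds in capitals, since genes that hold microRNAs recur among the strongest entries. The first 4 lie within the span of bound genes on the same strand, and the next 2 lie within 500 bp of a summit themselves. The last, mir-9378 and mir-9377, are the strongest hairpin entries. Sequences were read from the RefSeq copy of the dm6 assembly at the annotated positions.
mir-279, 3-prime arm (chr3R:29215651-29215672, plus strand): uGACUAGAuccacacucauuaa
mir-996, 3-prime arm (chr3R:29217244-29217265, plus strand): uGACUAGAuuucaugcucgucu
mir-282, 5-prime arm (chr3L:3251038-3251061, plus strand): uAGCCUCUacuaggcuuugucugu
mir-4951, 5-prime arm (chr3R:21316746-21316766, plus strand): uCGGGUGAgguuucugaugcu
mir-ban, 3-prime arm (chr3L:642259-642281, plus strand): uGAGAUCAuuuugaaagcugauu
mir-275, 5-prime arm (chr2L:7425814-7425836, plus strand): cGCGCUAAucagugaccggggcu
mir-9378, 5-prime arm (chr2L:10751915-10751938, minus strand): aGUGGAGUgagaccucgaguucgg
mir-9377, 5-prime arm (chrX:12665217-12665238, plus strand): cGCUCUUUcucucuaucuggcc
Of these, mir-279 and mir-996 share the seed GACUAGA and are cut from the same transcript, whereas the other 6 seeds differ from each other.

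The DNA at the 3 strongest summits is given as 60 bp on either side of the summit on the plus strand, with matches to GAGAG (the GA repeat), CACACAC (the CA repeat), CAGGTAG (Zelda), TATAAA (the TATA box), CATATG (the Twist E-box) and CGATA (BEAF-32) in capitals.
lncRNA:CR31840 (chr2L:14024022-14024142): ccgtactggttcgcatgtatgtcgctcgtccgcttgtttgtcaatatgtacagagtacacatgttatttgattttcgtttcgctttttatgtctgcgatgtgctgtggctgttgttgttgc
lncRNA:CR44619 (chrX:12752302-12752422): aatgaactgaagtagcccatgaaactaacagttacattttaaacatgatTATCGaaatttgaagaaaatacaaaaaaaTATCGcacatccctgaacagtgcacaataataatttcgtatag
lncRNA:CR31044 (chr3R:29214393-29214513): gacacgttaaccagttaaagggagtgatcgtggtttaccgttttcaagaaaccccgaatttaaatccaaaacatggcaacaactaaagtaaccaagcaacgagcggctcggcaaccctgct
In these windows the only matches were 2 copies of CGATA, read on the opposite strand, at lncRNA:CR44619.

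Among the 86 genes that are no microRNA entry, 7 are hosts of small RNAs, which means that a microRNA or snoRNA lies within their span on the same strand. The strongest host was lncRNA:CR31044 (FBgn0051044, chr3R:29214562-29219667, plus strand), the precursor of mir-279, which limits the formation of carbon dioxide-sensing neurons, and of mir-996. Its summit lay 109 bp upstream of the TSS with a pooled signal of 1334 at rank 42, and it stood at ranks 40, 44 and 53 in replicates 1, 2 and 3. The nearest protein-coding TSS, that of eEF1gamma, was 5719 bp away. This peak thus held nearly the same place in every list. The host of mir-282, lncRNA:CR43626 (FBgn0263617, chr3L:3249340-3254504, plus strand), had a signal of 762 at pooled rank 200, 347 bp upstream of 1 of its 3 TSSs, and ranks of 289, 178 and 202 in the replicates.

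lncRNA:Hsromega (FBgn0001234, chr3R:21296127-21317836, plus strand), the heat-inducible nuclear RNA that gathers RNA-binding proteins into omega speckles, had 2 own summits and holds mir-4951 20095 bp from its nearest TSS. The stronger summit, with a signal of 553 at pooled rank 400, lay 167 bp downstream of the first of its 2 TSSs, and the weaker, at rank 1932, lay 124 bp upstream of the second, so that both were between the TSSs. The strongest peak over the stronger summit ranked 518, 480 and 307 in replicates 1, 2 and 3. In replicates 1 and 3 that same peak was also the strongest over the weaker summit, so these lists do not tell the summits apart. In replicate 2 the weaker summit had another peak, at rank 1147. The other 3 microRNA hosts were weaker: asRNA:CR46194, host of mir-281-1 and mir-281-2, had pooled rank 1298, lncRNA:CR43650, host of the growth regulator mir-8, had rank 1850, and lncRNA:CR43651, host of mir-14, which restrains cell death, had rank 2688. The summit of lncRNA:CR43651 lay 3 bp from its TSS. It ranked 3221, 4788 and 1011 in replicates 1, 2 and 3 and so fell outside the 3237 strongest peaks of replicate 2.

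Uhg4 (FBgn0083124, chr2R:9095273-9097312, plus strand) is the host of 7 snoRNAs, a class that includes guides of ribosomal RNA modification. Its summit had a pooled signal of 691 at rank 252, 56 bp upstream of the TSS. It ranked 147 in replicate 1 and 433 in replicate 3, but no peak of replicate 2 covered its summit, and the nearest replicate 2 summit lay 1235 bp away at rank 15851. A peak at Uhg4 was thus present in 2 of the 3 replicate lists. The nearest protein-coding TSS, that of Boot, was 559 bp from the summit, close to the limit of the rule.

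Hosts of small RNAs made up a larger share of the bound genes than of ncRNA genes at large: 7 of 86 genes with an own summit (8.14%) were hosts, against 48 of all 2520 (1.90%). Seen from the annotation, 6 of 37 microRNA hosts had an own summit (16.2%, 95% exact Clopper-Pearson interval 6.19% to 32.0%), against 79 of 2472 genes that host no small RNA (3.20%, interval 2.54% to 3.97%). These intervals cover the counting of genes only. When the rule was applied to the 3237 strongest peaks of each replicate alone, 7, 6 and 8 hosts qualified in replicates 1, 2 and 3. The rule accepts a summit at any TSS of a gene. MicroRNA hosts are also longer and have more TSSs: their median span was 6436 bp against 701 bp, and 14 of 37 had more than 1 TSS against 114 of 2472. Among genes with 1 TSS, 2 of 23 microRNA hosts (8.70%, interval 1.07% to 28.0%) and 72 of 2358 other genes (3.05%, interval 2.40% to 3.83%) had an own summit. At this number of hosts the intervals for single-TSS genes overlap. Genes with more than 1 TSS were not compared apart, and the part of length and TSS number was not tested.

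**Figure D1:**
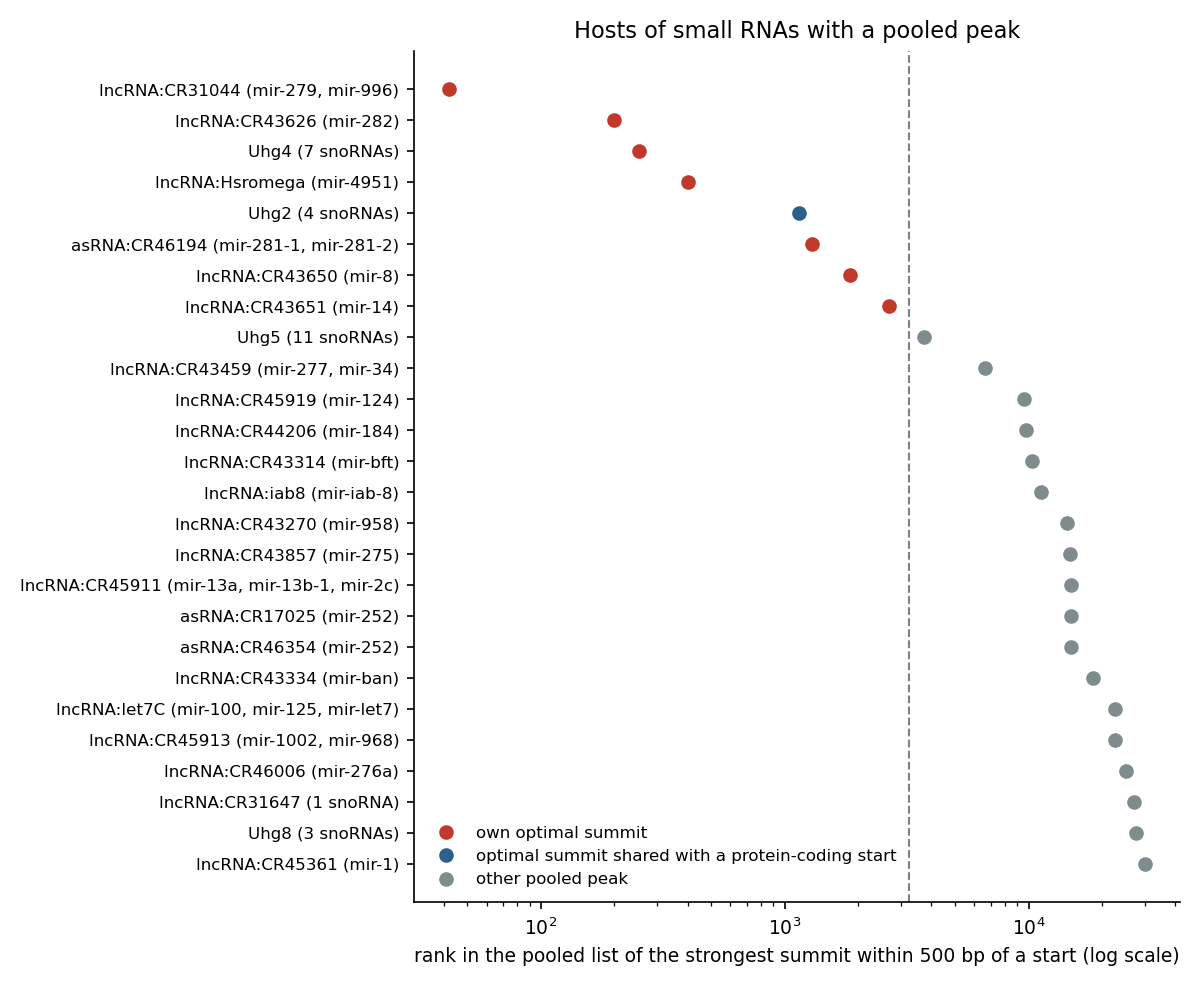
Rank in the pooled list (log scale, 1 is strongest) of the strongest summit within 500 bp of a TSS, for each host of microRNAs or snoRNAs that has a pooled peak. Red points are the 7 hosts with their own optimal summit, the blue point is Uhg2, whose optimal summit at rank 1142 is shared with a protein-coding TSS, grey points are hosts among the other pooled peaks, and the dashed line marks rank 3237.

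Several hosts of microRNAs with well-known developmental roles had no optimal summit. The precursor of mir-100, mir-125 and let-7, lncRNA:let7C, reached pooled rank 22538, that of mir-124, lncRNA:CR45919, reached rank 9585, and lncRNA:CR44504, which holds 8 hairpins of the early zygotic mir-309 group, had no pooled peak within 500 bp of its TSS. In all, 21 of the 37 microRNA hosts and 5 of 10 snoRNA hosts had a pooled peak there (56.8% and 50%), against 737 of 2472 genes that host no small RNA (29.8%). Of the snoRNA hosts, Uhg2 had an optimal summit that it shares with a protein-coding TSS, and Uhg5 lay just below the optimal set at rank 3711.

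The hairpin entries had summits that were not at the starts of the genes around them. At mir-ban, whose product bantam promotes growth and blocks the cell-death gene hid, the summit lay 463 bp downstream of the hairpin's first base, inside the host lncRNA:CR43334 and 2957 bp from that host's nearest TSS. It had a pooled signal of 236 at rank 1755 and ranked 1799, 2117 and 3420 in replicates 1, 2 and 3. At mir-275 the summit lay 464 bp upstream of the hairpin and 1511 bp downstream of the nearest TSS of its host, lncRNA:CR43857, with a signal of 216 at rank 2028. The hosts' own TSS regions carried only weaker pooled peaks, at rank 18310 for lncRNA:CR43334 and 14770 for lncRNA:CR43857. mir-9378, mir-9377 and mir-4974 lie in introns of CG17124, Tis11 and CG8671 on the same strand, and their summits were 4221, 5111 and 1125 bp from the nearest TSS of those genes. mir-9378 had a signal of 568 at rank 381 and mir-9377 had 467 at rank 551. mir-4974 and its 2 mature products, with a signal of 162 at rank 3132, were among the weakest entries and ranked 8943, 2936 and 3395 in the replicates, so that only replicate 2 held this summit among its 3237 strongest.

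Of 54 listed names of described noncoding RNAs, 27 matched an annotated symbol. Among these 27, 3 had an own summit (11.1%), against 86 of 2520 ncRNA genes other than microRNA entries (3.41%). They were Uhg4, lncRNA:Hsromega and lncRNA:flam. The share rests on these 3 genes, and the difference was not tested. lncRNA:let7C, spelled otherwise in the list, was not among the 27. The flamenco locus, lncRNA:flam (FBgn0267704, chrX:21631891-21790731, plus strand), is the source of piRNAs that hold gypsy-type transposons silent in the somatic cells of the ovary. Its summit lay 172 bp upstream of a TSS with a signal of 238 at pooled rank 1730. The replicates placed it at ranks 2552, 2063 and 1623, each inside that replicate's 3237 strongest peaks. The dosage-compensation RNAs lncRNA:roX1 and lncRNA:roX2, the bithorax-complex RNA lncRNA:bxd, both 7SL genes, RNaseP:RNA and RNaseMRP:RNA had no pooled peak within 500 bp of a TSS. lncRNA:Vinr at rank 3605, lncRNA:TS2 at 5423, lncRNA:yar at 6713 and lncRNA:iab8 at 11215 had pooled peaks outside the optimal set.

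The strongest entry of all was lncRNA:CR31840 (FBgn0051840, chr2L:14023722-14024099, minus strand), a gene of 378 bp with no described role. Its signal was 766 in replicate 1, 962 in replicate 2 and 407 in replicate 3, where the scale of each list differs, and 2111 in the pooled list. These signals put it at ranks 4, 11 and 26 in the replicates and 9 in the pooled list. The summit lay 17 bp inside the gene, 2919 bp from the nearest protein-coding TSS, and a second optimal summit at rank 2857 lay at -198 bp from the TSS. On the same strand and 1688 bp away, lncRNA:CR45352 had its own summit at pooled rank 504, with ranks of 208, 972 and 764. In all, 6 pairs of bound genes lay within 10 kb of each other, among them lncRNA:CR44867 and lncRNA:CR44868 in an intron of beat-Ib, a relative of an axon guidance gene, which share a summit.

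Other strong entries are given with a protein-coding neighbour, whether or not its function is known. lncRNA:CR44619 (FBgn0265830, chrX:12751867-12754571, plus strand) had a signal of 1423 at rank 39 and ranks of 37, 35 and 40 in the replicates. Its summit was 495 bp downstream of the TSS, just within the limit, and 6045 bp from the nearest protein-coding TSS, that of CG4004. asRNA:CR44429 (FBgn0265611, chrX:15297312-15298217, minus strand), antisense to gce, which encodes a juvenile hormone receptor, had a signal of 1169 at rank 59 and replicate ranks of 59, 59 and 69. Its summit was 522 bp from a gce TSS, so a rule with a slightly wider protein-coding limit would drop it. lncRNA:CR44339 had a signal of 1166 at rank 60, 165 bp upstream of its TSS and 4208 bp from the TSS of Psc, a Polycomb group gene. In replicates 1, 2 and 3 it ranked 45, 85 and 78. The first 5 entries therefore stayed within the 85 strongest peaks of every replicate.

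Below these, the next 20 entries had pooled ranks between 200 and 551. lncRNA:CR46036, inside an intron of osa on the opposite strand, had a signal of 753 at rank 205; osa encodes a subunit of the Brahma remodelling complex. lncRNA:CR42657, with a signal of 742 at rank 212, lay 449 bp downstream of its summit, which was 674 bp from the TSS of nej, the gene for the acetyltransferase CBP. lncRNA:CR45541 had 735 at rank 220, 1756 bp from the TSS of Hex-A, a hexokinase gene. lncRNA:CR44409, opposite the NF-kappaB gene Dif, had 677 at rank 267, and lncRNA:CR45668, whose summit was 636 bp from a TSS of the actin gene Act5C, had 518 at rank 448. lncRNA:CR44810, whose summit was 4526 bp from the TSS of the border-cell factor gene slbo, had 506 at rank 469. lncRNA:CR45251 had 751 at rank 207, 14795 bp from the TSS of CG6163, with a second summit at rank 1134. lncRNA:CR44676 had 618 at rank 325, 8407 bp from the TSS of CG9300. asRNA:CR45908, with its summit in an intron of CG1943, had 526 at rank 434. lncRNA:CR45531, with its summit in an intron of CG14434, had 480 at rank 516. Not one of the 98 own summits was nearest to a gene on a list of 78 matched developmental regulators, while 100 of all 3237 optimal summits were (3.09%). A count of 0 in 98 allows a share of up to 3.06% at 3 counts and of up to 3.69% by the exact 95% interval, which includes the share of all optimal summits.

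**Figure D2:**
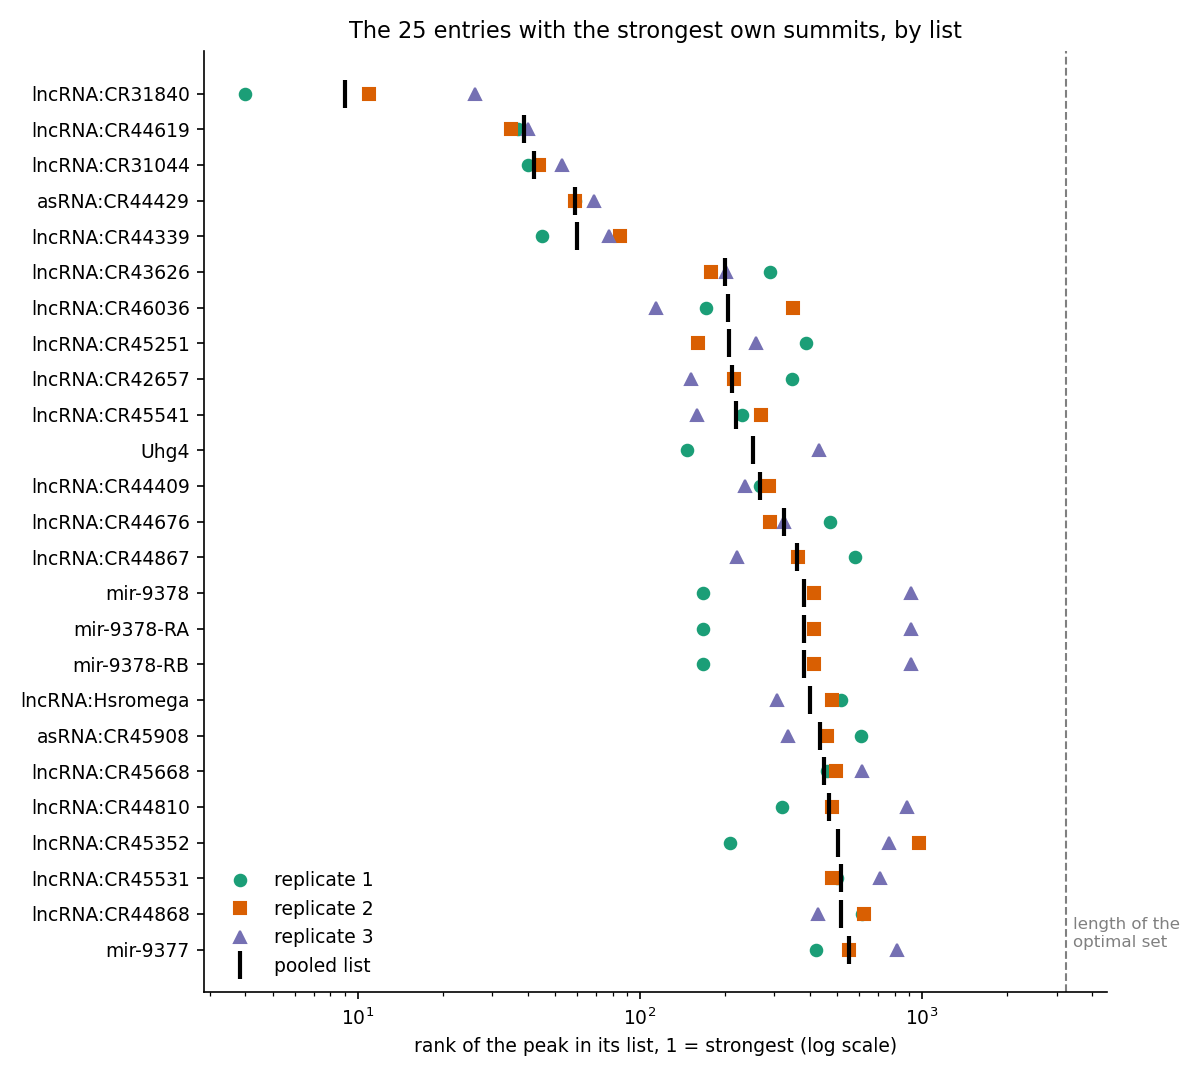
Rank of the peak over the own summit (log scale, 1 is strongest) in each replicate list and in the pooled list, for the 25 entries with the strongest pooled signal. The first 5 lie between ranks 4 and 85 in every list, Uhg4 has no replicate 2 point, and the dashed line marks rank 3237.

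As a set, the own summits were of middling strength. Their median pooled signal was 259 (n = 98, quartiles 205 and 444), against 286 for 1278 protein-coding promoter summits, 307 for 62 summits within 500 bp of both an ncRNA and a protein-coding TSS, 230 for 1861 other optimal summits off promoters, and 59.8 for the other pooled summits. Within the 3237 strongest peaks of all 3 replicates lay 67 of the 98 own summits (68.4%), against 64.7% of protein-coding promoter summits and 57.1% of the other off-promoter summits. Replicates 1, 2 and 3 alone held 81.6%, 88.8% and 88.8% of the own summits. For 95 of the 98, each replicate list had a peak over the summit, and the exceptions, beside Uhg4 in replicate 2, were asRNA:CR43964 and lncRNA:CR45539 in replicate 1. At asRNA:CR43964 a replicate 1 peak ended 19 bp from the summit, and at lncRNA:CR45539 the nearest ended 637 bp away. lncRNA:CR46000 was the 1 entry in no replicate's 3237 strongest, with ranks of 3427, 3800 and 3676.

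**Figure D3:**
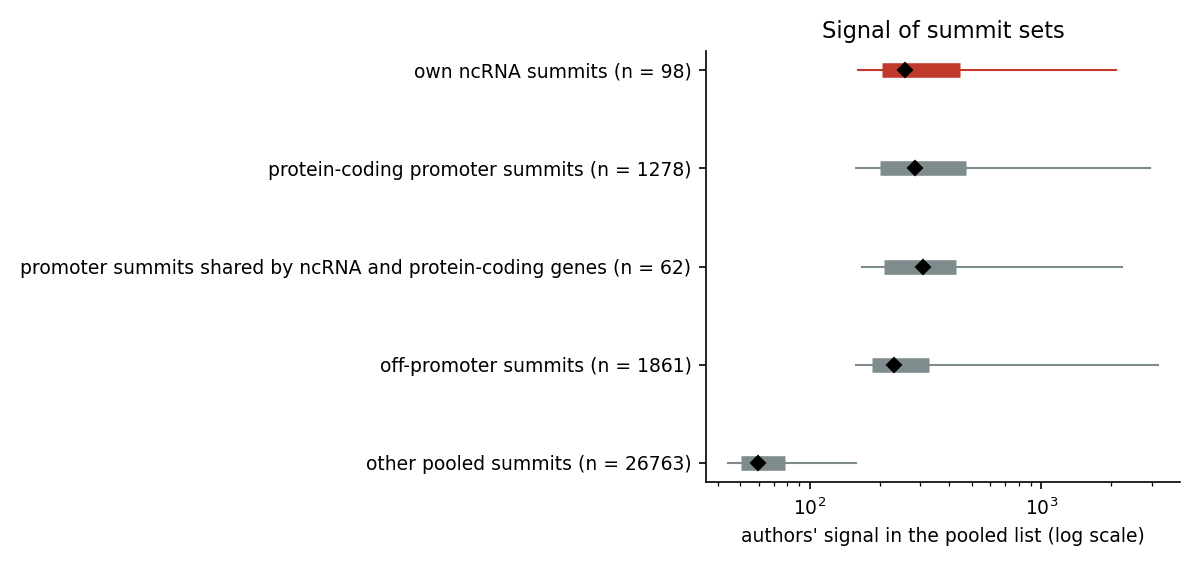
Authors' signal in the pooled list (log scale) for 5 sets of summits, own ncRNA summits on top. Diamonds are medians, thick bars run between the quartiles and thin lines from the lowest to the highest value; the own ncRNA summits (median 259) lie between protein-coding promoter summits (286) and other off-promoter summits (230).

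Applied to each replicate alone, the rule gave 101, 99 and 108 entries in replicates 1, 2 and 3 (103 ± 4.73, SD, n = 3), of which 81, 92 and 83 were among the 100. All 68 entries that qualified in each of the 3 replicates were among the 100. The optimal set was drawn from these same replicates pooled, so this overlap is a description only. Of the optimal summits over 500 bp from any protein-coding TSS, 98 of 1959 were own ncRNA summits (5.00%). In replicates 1, 2 and 3 that share was 5.30%, 4.94% and 5.62%. The other pooled summits gave 609 of 22483 (2.71%), and regions within 500 bp of an ncRNA TSS make up 1.89% of the bases at that distance from protein-coding TSSs. With the microRNA entries left out, genes whose every TSS lies over 1000 bp from any protein-coding TSS had an own summit in 75 of 1752 cases (4.28%).

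Upstream of the nearest entry TSS lay 57 of the 98 own summits (58.2%), and in replicates 1, 2 and 3 this share was 56.1%, 61.3% and 56.9%. The difference between the sides was larger within 200 bp of the ncRNA TSSs, a narrower strip than that of the rule. The labels give fragments of 200 to 800 bp, so distances below that size are approximate. With the microRNA entries left out, 29 summits lay within 200 bp upstream of a TSS, or 69.6 per Mb of sequence that was over 500 bp from a protein-coding TSS, against 10 within 200 bp downstream, or 23.5 per Mb. The same strip held 27, 27 and 29 summits upstream and 9, 10 and 15 downstream in replicates 1, 2 and 3 (27.7 ± 1.15 and 11.3 ± 3.21, SD, n = 3). Each replicate thus had more upstream than downstream. From 200 to 500 bp the sides were alike, with 45.4 per Mb upstream and 44.9 per Mb downstream. From 500 to 2000 bp the values were 25.1 and 31.0 per Mb, and all such sequence together had 16.6 per Mb. The weaker pooled peaks showed no such side, with 281 per Mb upstream and 287 per Mb downstream within 200 bp. Single bins are small: the bin from 500 to 600 bp downstream held 15 summits, or 73.7 per Mb, and the next held 0.

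**Figure D4:**
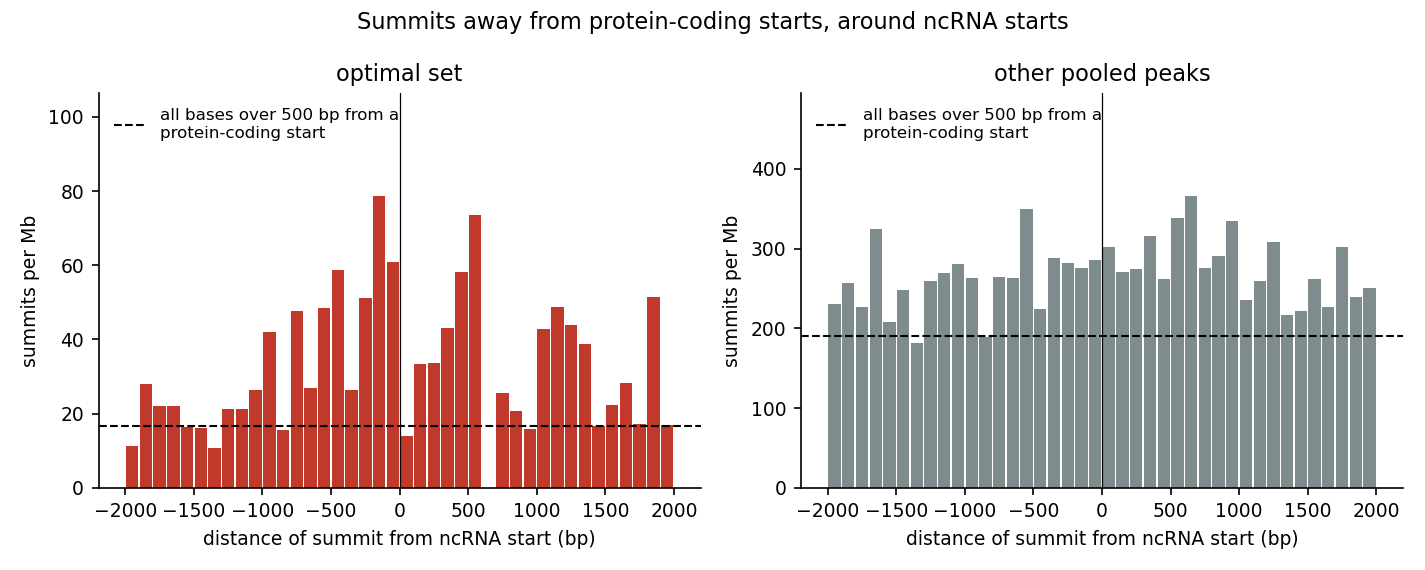
Summits per Mb (vertical axis) in 100-bp bins by distance from the nearest ncRNA TSS, negative upstream, with microRNA entries and all sequence within 500 bp of a protein-coding TSS left out. The optimal set (left) has 60.9 and 13.9 per Mb in the bins just upstream and just downstream of the TSS, while the other pooled peaks (right) have 286 and 302; dashed lines mark all sequence over 500 bp from a protein-coding TSS.

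The antisense RNAs, which are transcribed from the strand opposite a protein-coding gene, had their strongest own summit upstream of the TSS in 9 of 9 cases, at pooled ranks of 59 to 2037, and 8 of the 9 lay within the 3237 strongest peaks of every replicate. Among lncRNAs the strongest own summit was upstream in 40 of 75. Of all antisense RNAs, 9 of 503 had an own summit (1.79%) and 30 an optimal summit of any kind; of all lncRNAs, 75 of 1944 had an own summit (3.86%) and 106 an optimal summit of any kind. No difference between the classes was tested.

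In span, exon number and overlap with protein-coding genes the 86 genes were much like ncRNA genes at large. Their median span was 659.5 bp against 706.5 bp for all 2520, 39.5% against 39.6% had more than 1 exon, and 58.1% against 55.0% overlapped no protein-coding gene. More of them had over 1 TSS, 12.8% against 5.12%, which the rule favours. By chromosome arm, 26.7% against 16.0% lay on 2R, 14.0% against 22.5% on 3L, and none against 0.952% on chromosome 4. The 54 ncRNA genes with a shared promoter summit only had 31.5% on 2R and 20.4% on 3L, so the higher 2R share was not particular to own summits. Arm shares of all optimal summits are not given here. Of the 98 own summits, 65 were intergenic, 32 in an intron and 1 in an exon of a protein-coding gene, so 66.3% were intergenic against 24.1% of other off-promoter summits. The rule places own summits near ncRNA TSSs, and the intergenic share of all ncRNA TSSs is not given here. This contrast is therefore a description, and the part of the annotation was not tested. A further optimal summit lay within 1000 bp of 29 own summits (29.6%), against 20.2% of all optimal summits.

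Around the own summits, motif letters were counted within 100 bp on either side and on both strands. The GA repeat GAGAGAG, which includes GAGAG and is bound by GAGA factor and CLAMP, lay at 10 of 98 own summits (10.2%, 95% exact Clopper-Pearson interval 5.00% to 18.0%), against 59 of 1278 protein-coding promoter summits (4.62%), 65 of 1861 other off-promoter summits (3.49%, interval 2.71% to 4.43%), 2.99% of the other pooled summits and 3.39% of windows centred on all ncRNA TSSs. Applied to the replicates alone, the share was 7.14 ± 2.55% at own summits against 3.72 ± 0.252% at other off-promoter summits (SD, n = 3), and in replicate 3 it was 4.59% at own summits, against 3.99% at other off-promoter and 6.48% at protein-coding promoter summits. The shorter GAGAG was at 25.5% of own summits, against 23.1% of other off-promoter summits, but in replicate 3 it was lower at own summits, at 18.3% against 22.9%. The 10 summits with the repeat spanned the range of strength, from lncRNA:CR46036 at rank 205 to lncRNA:CR45354 at rank 3068.

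Examples of the GA repeat are shown as 60 bp on either side of the summit on the plus strand, with GAGAG and its complement CTCTC in capitals.
asRNA:CR45908 (chr3R:7075831-7075951): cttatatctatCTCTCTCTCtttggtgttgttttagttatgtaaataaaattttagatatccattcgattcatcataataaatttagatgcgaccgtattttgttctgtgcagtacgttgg
lncRNA:CR44331 (chr3R:8114043-8114163): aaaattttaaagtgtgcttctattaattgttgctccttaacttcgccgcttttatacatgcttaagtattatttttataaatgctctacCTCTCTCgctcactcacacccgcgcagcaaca
lncRNA:CR45354 (chr2L:16534300-16534420): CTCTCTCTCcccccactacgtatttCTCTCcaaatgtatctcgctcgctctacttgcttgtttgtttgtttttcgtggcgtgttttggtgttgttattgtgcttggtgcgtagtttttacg
The Zelda motif CAGGTAG is shown for lncRNA:CR45251 with 100 bp on either side, where it reads CTACCTG on the plus strand.
lncRNA:CR45251 (chr3L:11349990-11350190): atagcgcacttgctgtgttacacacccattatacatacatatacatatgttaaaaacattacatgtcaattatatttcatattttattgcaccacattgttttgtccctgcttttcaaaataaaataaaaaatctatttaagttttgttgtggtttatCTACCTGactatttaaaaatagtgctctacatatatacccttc
The repeat and the Zelda motif lay off the summit itself in these 4 windows.

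CAGGTAG, the motif of the early embryonic activator Zelda, was at 3 own summits (3.06%, interval 0.636% to 8.69%), those of lncRNA:CR45251, asRNA:CR46194 and lncRNA:CR43130, against 0.860% of other off-promoter summits. In the replicates the shares were 2.01 ± 0.160% and 0.988 ± 0.240% (SD, n = 3). Each replicate's share rests on 2 summits, so these values are imprecise. The housekeeping promoter motifs of DREF and M1BP had no match at the own summits. TATCGATA, the motif of DREF, was at 0 of 98, against 4.38% of protein-coding promoter summits and 0.161% of other off-promoter summits. A count of 0 allows a share of up to 3.06% at 3 counts and of up to 3.69% by the exact interval. GGTCACACT, the motif of M1BP, was likewise at 0 against 1.64% and 0.0537%. Its share at promoters lies below what a count of 0 allows. CAGCTG, the E-box of core promoter motif 5, did occur, at 7 of 98 own summits (7.14%), against 8.37% and 5.91%. CGATA, contained in TATCGATA and bound by BEAF-32, was at 14.3% of own summits (interval 8.04% to 22.8%), against 29.8% at protein-coding promoters and 21.9% at other off-promoter summits. That interval includes the share at other off-promoter summits but not the share at protein-coding promoters. CGATA was lower at own summits in 3 of 3 replicates than in either other set, at 17.3 ± 0.979%, against 29.8 ± 2.25% and 21.1 ± 0.141% (SD, n = 3). The replicate lists share many entries, so these SDs do not cover the counting of summits. With 3 paired values an exact two-sided test cannot go below p = 0.25, and none was run.

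**Figure D5:**
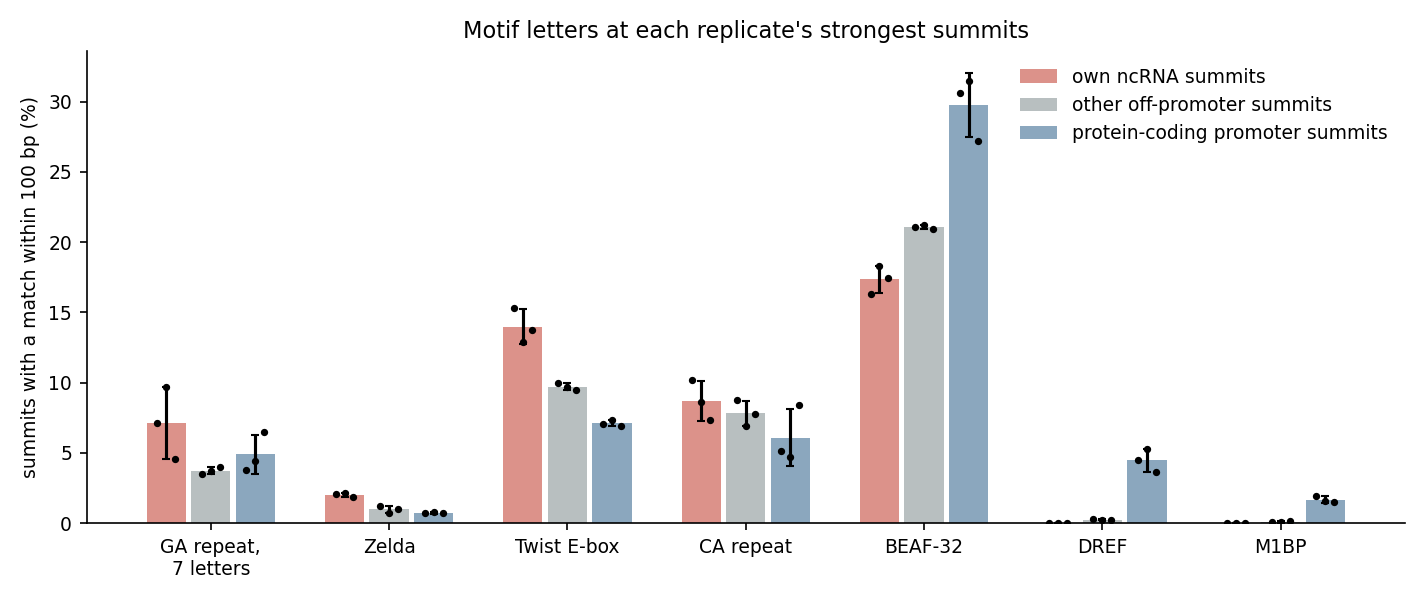
Share of summits (%) with a motif match within 100 bp, at the 3237 strongest peaks of each replicate, for own ncRNA summits, other off-promoter summits and protein-coding promoter summits. Bars are means, whiskers SD and dots the 3 replicates; the DREF and M1BP motifs are at 0% of own ncRNA summits in each replicate, and the BEAF-32 motif averages 17.3% there.

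TATAAA, the TATA box, was at 38.8% of own summits, against 40.5% at protein-coding promoters and 35.8% at other off-promoter summits, and CACACAC was at 6.12%, against 5.09% and 7.47%. CATATG was at 10.2% (interval 5.00% to 18.0%), against 7.28% and 9.83%, both inside that interval. In the replicates it averaged 14.0 ± 1.22% against 7.12 ± 0.226% and 9.73 ± 0.252% (SD, n = 3). The CTCF-like and Su(Hw)-like motifs had no match at an own summit, and with 2 and 5 matches among all 3237 optimal summits (0.0618% and 0.154%) they were too rare for 98 summits to show a difference. Of the 15 motifs searched, TCAGTT and TCAGTC (initiator) were at 10.2% and 6.12% of own summits, against 12.8% and 4.77% at protein-coding promoters. At other off-promoter summits these were at 13.6% and 4.78%. The A run AAAAAAAA was at 16.3% of own summits, against 13.5% and 15.7%. A match is a description of the letters and not evidence of the factor's presence.

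At the limits of the rule, lncRNA:CR46322, lncRNA:CR44185 and lncRNA:CR44619 were just inside the 500 bp from a TSS, at 486, 493 and 495 bp. Just outside were lncRNA:CR44363, lncRNA:CR45940 and lncRNA:CR44082, at 503, 504 and 510 bp, of which lncRNA:CR44363 had a signal of 504 at rank 473. By distance from a protein-coding TSS, asRNA:CR44429, lncRNA:CR45739 and Uhg4 were just inside at 522, 543 and 559 bp, and asRNA:CR46044, lncRNA:CR44466 and lncRNA:CR45618 just outside at 496, 482 and 468 bp. Below the optimal set, lncRNA:CR46061 had the strongest own summit, with a signal of 156 at rank 3276.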

How the data were processed

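Per the deposited notes and the labels, positions are on dm6, replicate peaks were called on each replicate against 1 common control alignment, and an optimal set was derived through the irreproducible discovery rate. Which aligner, peak caller and threshold served was not given in the sources used here. Lists are narrowPeak files: the signal is the authors' value in the deposited column 7, of unstated scaling, so signals were compared within a list only. The summit is the start plus the deposited offset. Read depth is unknown, and intervals cover the counting of genes or summits only. TSSs came from Ensembl release 115 and sequence from RefSeq. Peaks were ranked by signal, and each replicate was cut to its 3237 strongest peaks. Overlaps and motifs were counted in Python 3.11.15 with numpy 2.4.6 and scipy 1.17.1, and the rule was tested on simulated data. The entries and lists were chosen with earlier results of these data known. Named entries are the 25 strongest, the 3 weakest, those described, and those nearest each limit; the remaining hosts, hairpins, neighbours, motif examples and entries missing from a replicate were named after their values were seen. Alternatives were windows of 250 and 1000 bp, a wider protein-coding limit, the stronger 1618 peaks of the set, longer and shorter replicate lists, a narrower motif window, each replicate left out, and, chosen after seeing the data, no microRNA entries.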

Additional observations from a re-analysis of the deposited data

How the results depend on the processing

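Of 76 alternative values of shares and medians, 34 moved by less than 1 SD of the replicates. Of 20 alternative counts of entries or summits, 3 did, and 14 stayed within 1.5 times the count given. The main values were 58.2% upstream, 68.4% in the top of all replicates, 45% overlapping a protein-coding gene and 36.7% with a protein-coding TSS within 2000 bp. With a 250 bp window there were 62 entries and 61 summits (1.90% of entries), a median signal of 245, 67.2% upstream, 63.9% in the top of all replicates, 45.9% with a protein-coding TSS within 2000 bp and GAGAG at 31.1%. With 1000 bp there were 149 entries and 134 summits, 4.57% of entries, a median signal of 252, 62.7% in the top of all replicates, 40.9% overlapping a protein-coding gene, 30.6% with a protein-coding TSS within 2000 bp and CACACAC at 4.48%. Excluding protein-coding TSSs within 1000 bp gave 86 entries and 84 summits, 2.64% of entries, a median signal of 250.2, 41.9% overlapping a protein-coding gene and 26.2% with a protein-coding TSS within 2000 bp. The stronger 1618 peaks of the optimal set gave 56 entries, 53 summits, 1.72% of entries, a median signal of 424, 62.3% upstream, 94.3% in the top of all replicates, 57.1% overlapping a protein-coding gene and 32.1% with a protein-coding TSS within 2000 bp. Without microRNA entries there were 86 entries and 93 summits, 3.41%, a median signal of 262 and 41.9% overlapping. Keeping the optimal peaks that the other replicates support, with each replicate left out in turn, gave 74 to 79 entries and 72 to 77 summits, 2.27% to 2.42% of entries, a median signal of 313 to 328, 60% to 62.3% upstream, 87.0% to 93.1% in the top, 45.5% to 48.1% overlapping and CACACAC at 4.17% to 6.49%. That filter itself keeps peaks with replicate support, so its higher signal and top share are no check of the main values. Replicate lists of 6474 or 1618 peaks held 93.9% or 40.8% of own summits in all 3, and gave 194 ± 12.7 or 57.7 ± 4.51 entries per replicate (SD, n = 3). Within 50 bp GAGAG was at 10.2% and CACACAC at 2.04% of own summits. A narrower window can only lower such shares, and those of GAGAGAG and of the other sets are not given at 50 bp. With 1 group no replicate block could be fitted, and the within-replicate differences between sets of summits were not tested. The unknown depth and unstated signal scale limit comparisons between lists to ranks.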

Other observations

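Beyond the 100 entries, 635 further ncRNA entries (19.5% of 3261) had an own summit only among the other pooled peaks. The rule applied to replicates 1, 2 and 3 alone also gave 20, 7 and 25 entries that are not among the 100. Of the 8 entries with 2 own summits, lncRNA:CR31840 and asRNA:CR43964, each with 1 TSS, had them on opposite sides of the TSS within 200 bp. The strongest replicate 1 peak, at rank 4, was the same over both summits of lncRNA:CR31840. At asRNA:CR43964 the strongest peak was shared by both summits in replicates 2 and 3.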
